A study of Mus musculus with 4 samples.

Results

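Ketone body use and monocarboxylate transport were followed through 9 genes, chosen by symbol, which are 9 of the 55536 rows of the deposited table. They encode 4 carriers (Slc16a1, Slc16a3, Slc16a6, Slc16a7), the carriers' partner protein basigin (Bsg) and 4 enzymes (Bdh1, Oxct1, Acat1, Aacs). RNA-seq was done on 4 libraries. Each came from the stromal vascular fraction of inguinal white adipose tissue, which holds the cells of fat other than adipocytes, taken from wild-type male mice at postnatal day 21. Each library was a pool of 3 mice, and each pairing of a parental group (LnF1 or ObF1, in a series whose title names parental obesity) with a drink (water or 1,3BD, as the labels write them) had 1 library. What the parents were given, the dose and length of 1,3BD and any culture of the cells before lysis were not given in the sources used here. The series design calls the cells adipose progenitors.

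Values are reads scaled to library size, in CPM. The recovered depth was 24586827 to 26000090 reads per library, so that 1 read was worth 0.0359 to 0.0434 CPM. No combination of parents and drink had a second library. The standard error (SE) of a log2 difference therefore starts from its failure to repeat in the other parental group or the other drink. It is then moderated by limma toward genes of like expression. In the drink comparison a gene's own part had 1 degree of freedom, against a median of 10.3 lent by other genes. For a typical gene most of the SE is thus borrowed, and the p-value does not measure that gene's repeatability alone. Log2 differences are on the scale of log2(CPM + 0.0796), while fold changes between single libraries are plain ratios of CPM. Adjusted p-values come from limma over 12838 genes with a threshold of 0.05. In RNA from mixed cells, fewer cells of a type and less RNA per cell cannot be told apart.

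Ketone bodies are made mainly in the liver and burned elsewhere. A cell takes up 3-hydroxybutyrate and acetoacetate through proton-coupled monocarboxylate carriers, which also carry lactate and pyruvate. In mitochondria 3-hydroxybutyrate dehydrogenase (Bdh1) forms acetoacetate, the CoA transferase encoded by Oxct1 activates it, and the thiolase encoded by Acat1 splits the product into acetyl-CoA. In the cytosol acetoacetyl-CoA synthetase (Aacs) instead directs acetoacetate to lipid synthesis. Slc16a1 encodes MCT1, a carrier known for uptake and release, and Slc16a3 encodes MCT4, known for lactate export from glycolytic cells. Slc16a7 encodes the high-affinity carrier MCT2. Slc16a6 encodes a relative known for ketone body export in liver.

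The promoter of Slc16a1 is shown because this gene had the largest rise among the 9, and the stretch before the start of Slc16a3 because its level lay above that of Slc16a1 in water and below it with 1,3BD. The first is the 250 bases before the RefSeq start of Slc16a1 (GRCm38.p6, chr3:104638414-104638663, plus strand), with the E box CACGTG and the GC box GGGCGG in capitals. The second is the last 30 bases before the RefSeq start of Slc16a3 (chr11:120949037-120949066, plus strand), which lies inside the longer GENCODE M21 gene model, with the core ACGTG of the hypoxia response element in capitals.
Slc16a1: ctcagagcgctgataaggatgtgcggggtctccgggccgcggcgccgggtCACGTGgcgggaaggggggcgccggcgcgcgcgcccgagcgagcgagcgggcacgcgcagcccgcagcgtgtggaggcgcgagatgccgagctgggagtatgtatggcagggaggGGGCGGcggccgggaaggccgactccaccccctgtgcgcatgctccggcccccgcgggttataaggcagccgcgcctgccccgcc
Slc16a3: gtgACGTGcgcgggggACGTGccgcgcgac
The E box of Slc16a1 starts 200 bases before the gene's start and also holds the letters ACGTG on both strands, and its GC box starts 85 bases before. In Slc16a3 the ACGTG cores start 27 and 14 bases before the RefSeq start. Its window also holds a GC box that starts 48 bases before, outside the stretch shown. On either strand, CACGTG was found in 6.02% of 32851 RefSeq promoter windows of 250 bases, ACGTG in 16.6% and GGGCGG in 32.7%. The Slc16a1 window was 76.4% G and C and that of Slc16a3 73.6%, against a median of 52.4%. The shares of windows with each motif were not matched for G and C content. Promoters of 5 of the 9 genes were matched, and the windows of all but Slc16a1 overlap the GENCODE M21 model of the same gene. The windows of Aacs and Bdh1 held none of these 3 motifs, and that of Oxct1 held the ACGTG core once. These are matches of letters, not sites of binding.

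Cell type markers were read in the same libraries. Adipoq and Lep of mature fat cells, Cd3e and Cd79b of lymphocytes, Hbb-bs of red cells and Epcam of epithelium had 0 reads, which allows at most 0.130 CPM, and Ptprc of white blood cells had at most 4 reads. Other markers on these lists did have reads. The highest counts in a library were 8 for Cd79a of lymphocytes, 17 for Alas2 of red cells and 7 for Msln of mesothelium. Summed over 8 markers, fibroblast and progenitor genes stood at 30338 CPM (LnF1) and 34797 CPM (ObF1) in water and at 9206 and 7116 CPM with 1,3BD. Of these 8, 6 were tested, and Col1a1, Col1a2 and Pdgfrb fell with 1,3BD. The collagen genes carried the sum (Col1a1 at 16522 CPM and Col1a2 at 12698 CPM in LnF1 water), while Pdgfra stood at 243 and 236 CPM in water and 281 and 412 CPM with 1,3BD (log2 0.51, limma adjusted p = 0.0742). Mural and smooth muscle markers, of which Acta2, Myh11 and Rgs5 fell, summed to 7843 and 8343 CPM in water and 119 and 178 CPM with 1,3BD. Of the 6 markers of macrophages and white blood cells 4 were tested and 2 fell (sums of 20.1 and 15.6 CPM in water, 4.95 and 9.60 CPM with 1,3BD), and of the 4 endothelial markers Cdh5 fell (sums of 4.67 and 12.9 CPM, then 0.717 and 2.44 CPM). The 5 mature adipocyte markers summed to 0.382 and 0.0869 CPM in water and 5.27 and 1.84 CPM with 1,3BD, where Plin1, which coats lipid droplets, gave 5.09 and 1.84 CPM. Of the 3 skeletal muscle markers Acta1 alone was tested, and it fell (86.5 and 61.8 CPM in water, 1.83 and 1.87 CPM with 1,3BD). The 3 Schwann markers summed to 2.67 and 15.6 CPM in water (LnF1 and ObF1). With 1,3BD they summed to 1.97 and 0.712 CPM, and none was called. Plin1, Pecam1, Cspg4, Des and Sox10 of Schwann cells reached 1 CPM only in the drink where they are high, so their tests are not used. Levels of these markers differed between drinks, and their part in the results below was not tested.

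Per kilobase of merged exon, Bsg was the most abundant of the 9 genes in every library, at 322 to 494 CPM per kb. The levels of Slc16a1 (9.68 to 75.5 CPM per kb), Oxct1 (20.5 to 38.9), Slc16a3 (10.3 to 51.7), Acat1 (15.9 to 20.7) and Aacs (8.83 to 25.9) overlapped. Slc16a6 (0.730 to 5.29 CPM per kb) and Bdh1 (0.849 to 1.96) lay below those 5 and overlapped each other. Slc16a7 was lowest, at 0.0412 to 0.154 CPM per kb over gene models with 11839 bases of exon. By their means over 4 libraries, the order was Bsg (408 CPM per kb), Slc16a1 (38.3), Oxct1 (30.8), Slc16a3 (26.5), Acat1 (17.9), Aacs (17.7), Slc16a6 (2.75), Bdh1 (1.41) and Slc16a7 (0.0876). Neighbours from Slc16a1 to Aacs overlapped in their range over the libraries, as did Slc16a6 and Bdh1, but that range includes the difference between drinks. Slc16a1 lay below Oxct1 in both water libraries and above it in both 1,3BD libraries. Slc16a6 lay below Bdh1 in both water libraries and above it in both 1,3BD libraries.

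**Figure D1:**
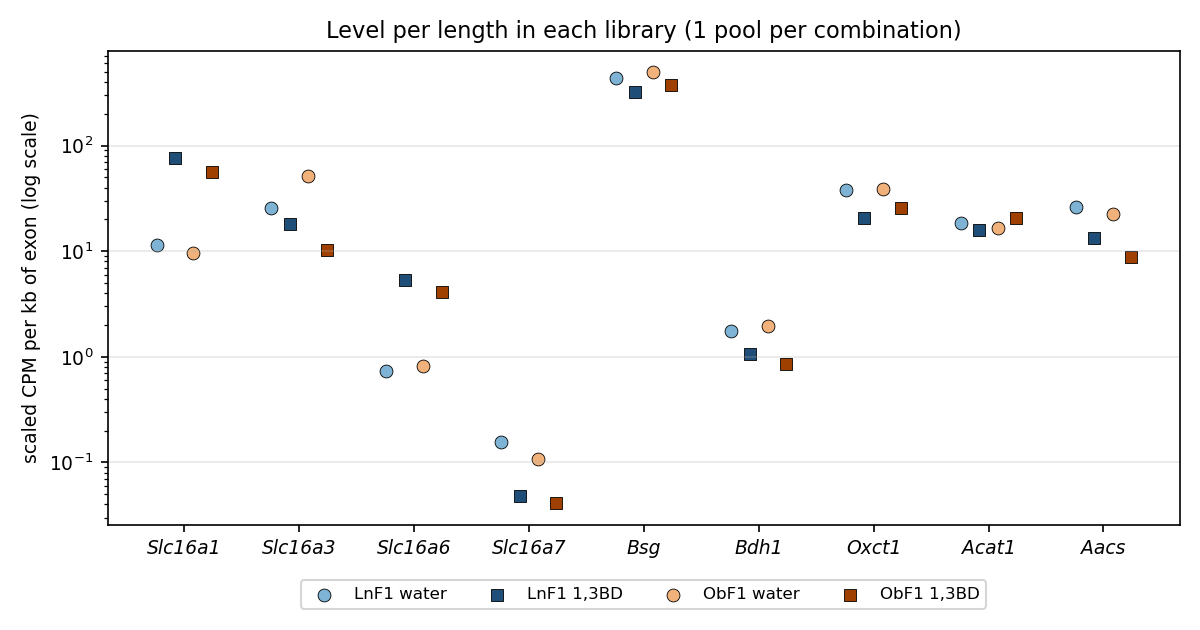
Level of each gene in each of the 4 libraries, in scaled CPM per kilobase of exon on a log axis, with circles for water and squares for 1,3BD. Slc16a1 and Slc16a6 are higher in both 1,3BD libraries than in both water libraries, while Slc16a3, Slc16a7, Bdh1, Oxct1, Aacs and Bsg are lower in both. With so few libraries such separation is no test, and its share over all genes was not counted.

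The comparison of 1,3BD with water showed the largest changes in the carriers. Slc16a1 (chromosome 3, 104638668 to 104658462, plus strand) stood at 50.5 CPM in LnF1 water and 42.8 CPM in ObF1 water. With 1,3BD it stood at 334 CPM in LnF1 and 250 CPM in ObF1. Both 1,3BD libraries were thus far above both water libraries, and the groups did not overlap. The share of all genes that separate the drinks in this way was not counted, here or for the genes below. The rise was 6.62-fold in LnF1 (counting interval 6.23 to 7.04) and 5.83-fold in ObF1 (5.46 to 6.24). These are exact 95% intervals that cover counting error only. The log2 difference was 2.63 (SE 0.19, limma adjusted p = 2.88e-06), rank 99 from the top of 12838 genes.

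Slc16a6 (chromosome 11, 109450855 to 109473598, minus strand) rose by nearly the same factor from a much lower level. It stood at 3.57 CPM in LnF1 water and 3.997 CPM in ObF1 water, from 84 and 92 reads. With 1,3BD it reached 25.9 CPM in LnF1 and 20.2 CPM in ObF1. The groups did not overlap, and the log2 difference was 2.57 (SE 0.28, limma adjusted p = 4.04e-05). The ratio of 1,3BD to water was 7.25 in LnF1 (counting interval 5.78 to 9.20) and 5.07 in ObF1 (4.05 to 6.39). Exons of Slc16a6 overlap those of Arsg and Amz2 on the other strand, and whether counting used strand was not given in the sources used here. In water Arsg stood at 8.62 CPM (LnF1) and 7.95 CPM (ObF1), and with 1,3BD at 13.6 and 10.6 CPM. Amz2 stood at 58.3 and 59.3 CPM in water and 59.2 and 70.4 CPM with 1,3BD. How the reads of these 3 genes were split is uncertain.

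Slc16a3 (chromosome 11, 120948480 to 120960868, plus strand) was lower with 1,3BD in both parental groups, by very different amounts. It stood at 137 CPM in LnF1 water and 275 CPM in ObF1 water, against 96.8 CPM in LnF1 1,3BD and 54.5 CPM in ObF1 1,3BD. Both 1,3BD libraries lay below both water libraries. The level with 1,3BD was 1.41-fold lower in LnF1 (counting interval 1.34 to 1.49) and 5.04-fold lower in ObF1 (4.76 to 5.34). The 2 parental groups thus differed in this change by -1.84 on the log2 scale, larger in size than in 98.1% of the genes tested, with no replicate to test it. The log2 difference of -1.41 (SE 0.47) did not pass the threshold (limma adjusted p = 0.0732). Nor did it pass with edgeR (adjusted p = 0.0783), RLE scaling factors (limma adjusted p = 0.0813) or library totals without factors (limma adjusted p = 0.0906). Pseudocounts worth 0.5 and 10 reads gave limma adjusted p = 0.0761 and 0.0653. It passed with DESeq2 (adjusted p = 0.000552) and without the expression filter (limma adjusted p = 9.68e-09), where the SE was 0.22. Other passing fits were those at a mean CPM of at least 5 (limma adjusted p = 0.0463), with robust moderation off (limma adjusted p = 0.00571) and without the parental covariate (limma adjusted p = 0.0285). It also passed without the LnF1 water library (log2 -1.92) or the LnF1 1,3BD library (log2 -1.83). Without either ObF1 library it did not pass, at -0.91 (without ObF1 water) and -1.001 (without ObF1 1,3BD).

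Slc16a7 (chromosome 10, 125219270 to 125389465, minus strand) was nearly absent. It had 43 and 29 reads in water (LnF1 and ObF1, 1.83 and 1.26 CPM) and 16 and 13 reads in the 1,3BD libraries (0.574 and 0.487 CPM). It entered the test only through the water libraries, where it is higher, so its log2 difference of -1.39 is given with no test.

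The make-up of the carrier set differed between drinks within every library, a measure that no scaling of a library can alter. Per length, Slc16a3 made up 67.7% of the 4 carriers in LnF1 water and 83.0% in ObF1 water. Slc16a1 made up 76.2% in LnF1 1,3BD and 79.6% in ObF1 1,3BD. The ratio of Slc16a1 to Slc16a3 per length was 0.444 in LnF1 water (counting interval 0.415 to 0.474) and 0.187 in ObF1 water (0.175 to 0.2002). With 1,3BD it was 4.15 in LnF1 (3.97 to 4.33) and 5.51 in ObF1 (5.20 to 5.83). The more abundant carrier was thus Slc16a3 in both water libraries and Slc16a1 in both 1,3BD libraries. The ratio differed 9.35-fold between drinks in LnF1 and 29.4-fold in ObF1.

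The summed level of the 4 carriers was higher with 1,3BD in both parental groups, by very different amounts. It was 37.99 CPM per kb in LnF1 water and 99.0 in LnF1 1,3BD, but 62.3 in ObF1 water and 70.9 in ObF1 1,3BD. Slc16a6 made up 1.92% (LnF1) and 1.31% (ObF1) of the sum in water, and 5.35% and 5.85% with 1,3BD.

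**Figure D2:**
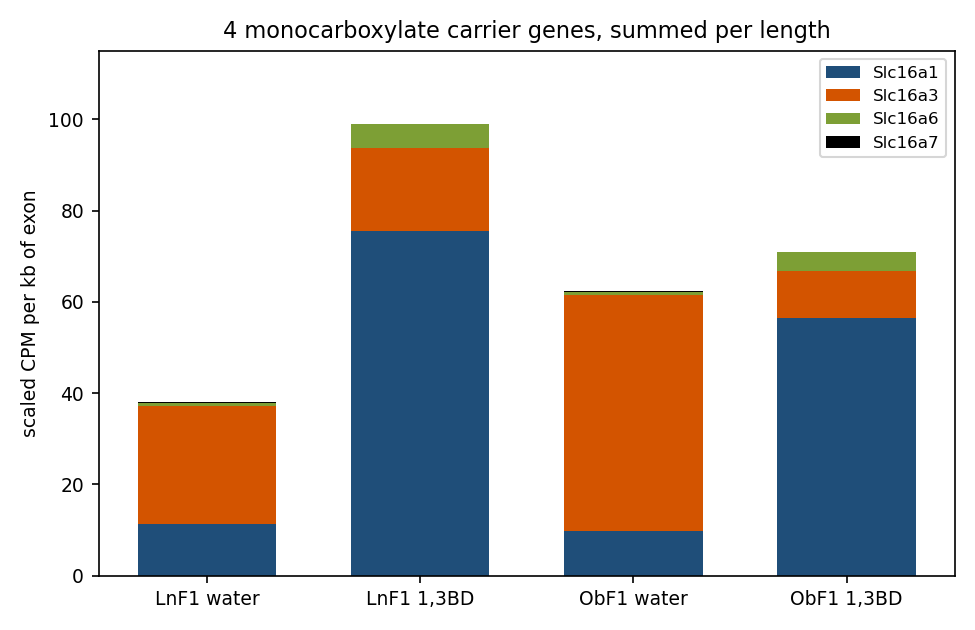
Level per kilobase of exon of Slc16a1, Slc16a3, Slc16a6 and Slc16a7, stacked for each library in scaled CPM per kb. The bars for water are mostly Slc16a3 (67.7% and 83.0%), and those for 1,3BD mostly Slc16a1 (76.2% and 79.6%).

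Bsg encodes basigin, the membrane glycoprotein that brings MCT1 and MCT4 to the cell surface (chromosome 10, 79704491 to 79711969, plus strand). It stood at 797 CPM in LnF1 water, 583 in LnF1 1,3BD, 897 in ObF1 water and 682 in ObF1 1,3BD. Both 1,3BD libraries lay below both water libraries, but the log2 difference of -0.42 (SE 0.21) did not pass (limma adjusted p = 0.124). Its transcript outnumbered the 4 carriers together in every library, by 11.6-fold in LnF1 water, 7.93-fold in ObF1 water, 3.25-fold in LnF1 1,3BD and 5.30-fold in ObF1 1,3BD per length.

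Among the enzymes of ketone body use, Oxct1 and Bdh1 were lower with 1,3BD and Acat1 was not called. Oxct1, the step found in tissues that burn ketone bodies (chromosome 15, 4026383 to 4155344, plus strand), stood at 142 CPM in LnF1 water and 144 CPM in ObF1 water. It fell to 76.0 CPM in LnF1 1,3BD and 93.9 CPM in ObF1 1,3BD, with no overlap of the groups. The log2 difference was -0.76 (SE 0.20, limma adjusted p = 0.00928). This call was lost with library totals without factors (limma adjusted p = 0.0536) and in fits without the LnF1 water (limma adjusted p = 0.128), ObF1 water (0.122) or LnF1 1,3BD library (0.0725).

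Bdh1, which interconverts 3-hydroxybutyrate and acetoacetate (chromosome 16, 31422280 to 31458901, plus strand), was low throughout. It had 162 and 175 reads in water (LnF1 and ObF1, 6.88 and 7.60 CPM) and 116 and 88 reads with 1,3BD (4.16 and 3.30 CPM). The groups did not overlap, and the log2 difference was -0.95 (SE 0.32, limma adjusted p = 0.0320). The call was lost with DESeq2 (adjusted p = 0.0753), with library totals without factors (limma adjusted p = 0.0945), without the covariate (limma adjusted p = 0.0507) and without LnF1 water (limma adjusted p = 0.179), ObF1 water (0.214) or ObF1 1,3BD (0.151). Per length, Oxct1 stood 19.2-fold to 29.9-fold above Bdh1 in the 4 libraries.

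Acat1, the mitochondrial acetoacetyl-CoA thiolase (chromosome 9, 53580522 to 53610382, minus strand), stood at 69.0 CPM in LnF1 water, 59.7 in LnF1 1,3BD, 62.1 in ObF1 water and 77.9 in ObF1 1,3BD. The drinks overlapped, and the log2 difference was 0.06 (SE 0.21, limma adjusted p = 0.840). It was lower with 1,3BD in LnF1 (log2 -0.21) and higher in ObF1 (log2 0.33).

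Aacs, the cytosolic route to lipid synthesis (chromosome 5, 125475814 to 125517410, plus strand), fell with 1,3BD. It stood at 100.003 CPM in LnF1 water and 87.3 CPM in ObF1 water, against 51.6 CPM in LnF1 1,3BD and 34.0 CPM in ObF1 1,3BD. The groups did not overlap, and the log2 difference was -1.16 (SE 0.21, limma adjusted p = 0.00126). It is the one of the 3 falls that passed in every other fit with all 4 libraries, and it missed the threshold without the LnF1 water library (limma adjusted p = 0.0789).

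Of the 8 genes that reached 1 CPM in both drinks, 2 rose with 1,3BD (Slc16a1, Slc16a6), 3 fell (Oxct1, Bdh1, Aacs) and 3 did not pass (Slc16a3, Bsg, Acat1). Slc16a7, the ninth, is not counted. Over all 12838 genes tested, 44.0% were called, 19.2% higher and 24.8% lower, so calls were common in this comparison. Unlike the 8, those genes include some that, as Slc16a7, reached 1 CPM in only 1 drink. The median log2 difference of the 8 was -0.59, against -0.06 over all genes. With library totals without factors, which move the median gene to 0.19, the 2466 genes higher and 3189 lower became 3687 and 2270, and of the 3 falls Aacs alone passed. Slc16a1 and Slc16a6 passed in every fit, with limma adjusted p-values of at most 0.00311 and 0.00552 in fits without 1 library.

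**Figure D3:**
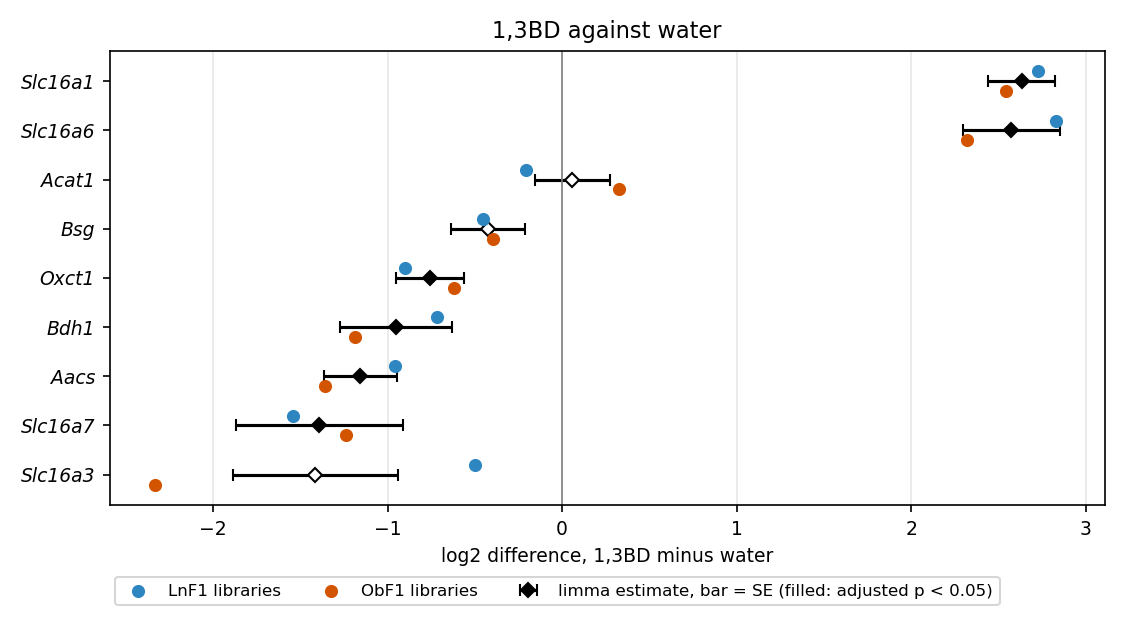
Log2 difference of 1,3BD from water for each gene in the LnF1 libraries (blue) and the ObF1 libraries (orange), with the limma estimate (diamond, bar = SE, filled where the adjusted p is under 0.05, though for Slc16a7 that p is not used). Slc16a1 (2.63) and Slc16a6 (2.57) lie far to the right, and the 2 values of Slc16a3 (-0.50 and -2.33) lie farthest apart.

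The comparison of ObF1 with LnF1 called none of the 9 genes. The count was 0 higher and 0 lower in limma, with 0 at an unadjusted p under 0.05, and 0 in edgeR and DESeq2. Over all genes 0.296% were called, 0.195% higher and 0.101% lower. At an unadjusted limma p under 0.05 there were 688 genes higher and 704 lower of 12838. The median log2 difference was -0.09, against 0.01 over all genes. The lowest limma adjusted p was 0.511, for Aacs at a log2 difference of -0.40 (SE 0.21). Slc16a1 was lower in ObF1 in both drinks, by 1.18-fold in water (counting interval 1.08 to 1.28) and 1.34-fold with 1,3BD (1.30 to 1.38), without passing (log2 -0.33, SE 0.19, limma adjusted p = 0.552).

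Slc16a3 differed most between the parental groups in a single drink, and in opposite directions. In water it was 2.01-fold higher in ObF1 (counting interval 1.93 to 2.10), and with 1,3BD it was 1.78-fold lower (1.67 to 1.89). Its log2 difference over both drinks was 0.09 (SE 0.47, limma adjusted p = 0.964), and -0.02 with library totals without factors. Bsg was higher in ObF1 in both drinks (log2 0.17 and 0.22), and so was Oxct1 (0.02 and 0.31). None of these passed.

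**Figure D4:**
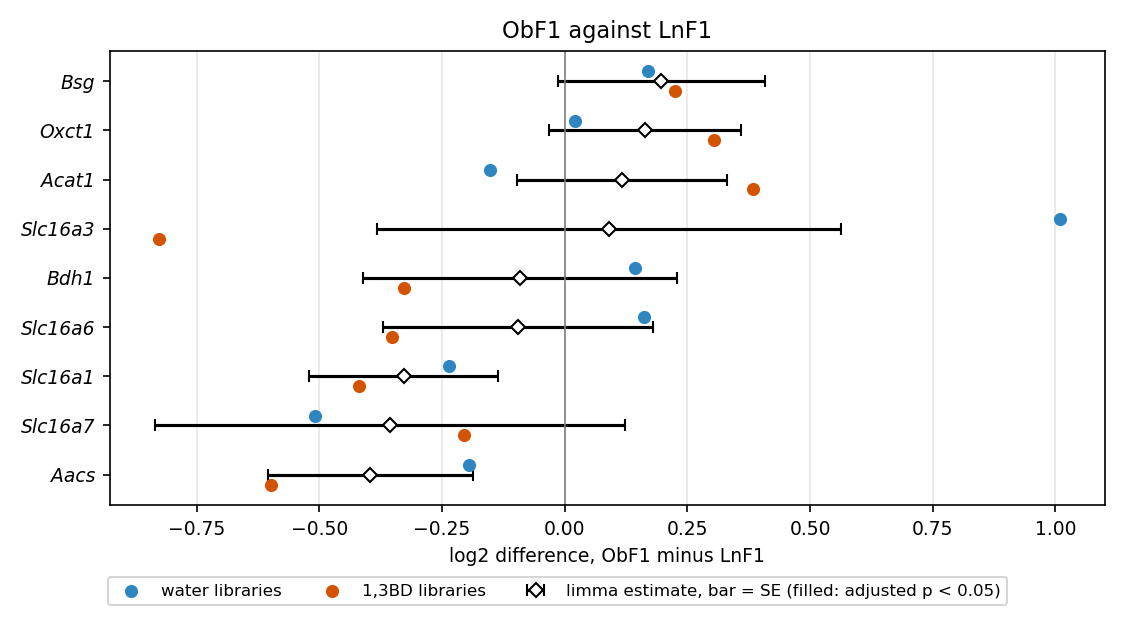
Log2 difference of ObF1 from LnF1 for each gene in the water libraries (blue) and the 1,3BD libraries (orange), with the limma estimate (diamond, bar = SE, open where not called). All 9 estimates are open, and Slc16a3 is split between 1.01 in water and -0.83 with 1,3BD.

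Neighbouring genes of these pathways were read from 5 lists. Of 40 genes tested in 4 of them, 13 were called between drinks in limma (44.0% over all genes) and 0 between parental groups (0.296% over all genes). In the fifth list, the receptors for ketone bodies, lactate and short-chain acids, no gene entered the test. Ffar2 and Ffar3 had 0 reads in all libraries, Hcar2, the 3-hydroxybutyrate receptor, had at most 1 read, and Hcar1, the lactate receptor, at most 7. The calls of Pdk4, Pcx and Ldha held in every fit, and the other 10 were lost in at least 1.

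Of the other carriers and partners, 10 of 15 were tested, 2 rose and 2 fell with 1,3BD (median log2 0.01). Emb, which encodes embigin, the basigin relative that partners MCT2, stood at 247 CPM in LnF1 water and 118 CPM in ObF1 water. With 1,3BD it reached 567 CPM in LnF1 and 691 CPM in ObF1, and the log2 difference was 1.87 (SE 0.30, limma adjusted p = 0.0014), which missed the threshold without the ObF1 1,3BD library (limma adjusted p = 0.0696). Slc16a10, an aromatic amino acid carrier, rose (1.32 and 1.74 CPM in water, 3.62 and 3.60 CPM with 1,3BD), a call lost with DESeq2 and without any single library. Slc16a4 fell by 1.11 on the log2 scale, a call lost without LnF1 water (limma adjusted p = 0.172) or ObF1 water (0.0788). The mitochondrial pyruvate carrier genes Mpc1 (log2 -0.20) and Mpc2 (0.30) did not pass.

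Of the lactate and pyruvate enzymes, 14 of 15 were tested, 3 rose and 1 fell (median log2 0.05). Pdk4, a kinase that shuts pyruvate dehydrogenase, stood at 9.64 CPM in LnF1 water and 12.7 CPM in ObF1 water, against 48.2 and 86.3 CPM with 1,3BD (log2 2.53, limma adjusted p = 1.32e-05). Pcx, pyruvate carboxylase, rose with 1,3BD in both groups (37.6 and 25.8 CPM in water, 136.7 and 79.7 CPM with 1,3BD) (log2 1.74, SE 0.21, limma adjusted p = 7.64e-05). Pdp1, a phosphatase that opens pyruvate dehydrogenase again, also rose (log2 1.09), a call lost without LnF1 water (limma adjusted p = 0.0576) or ObF1 water (0.0597). Ldha, which forms lactate, stood at 1749 and 1959 CPM in water and fell to 738 and 566 CPM with 1,3BD (LnF1 and ObF1), a log2 difference of -1.52. Subunits of pyruvate dehydrogenase (Pdha1, Pdhb, Dlat, Pdhx) had log2 differences of -0.19 to 0.38 and none passed, though Pdhb passed with library totals without factors (limma adjusted p = 0.0327).

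Of 8 genes of ketone body production 4 entered the test, 1 rose and 1 fell. Cpt1a, which admits fatty acids to mitochondria, rose (109 and 65.95 CPM in water, 158 and 173 CPM with 1,3BD) and Bdh2 fell (log2 -1.61). Acadm, of fatty acid oxidation, did not pass (log2 0.09), and the median of the list was -0.12. Cpt1a lost its call without LnF1 1,3BD (limma adjusted p = 0.0505), ObF1 water (0.182) or ObF1 1,3BD (0.0992). Bdh2 lost its own without LnF1 water (limma adjusted p = 0.124), ObF1 water (0.0503) or ObF1 1,3BD (0.0535).

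Of the genes that handle succinyl-CoA, acetoacetyl-CoA and acetyl-CoA, 12 of 13 were tested, 1 rose and 2 fell (median log2 -0.37). Acss2, cytosolic acetyl-CoA synthetase, rose (16.5 and 10.6 CPM in water, 26.7 and 28.05 CPM with 1,3BD). Cs, citrate synthase, fell by 0.84 on the log2 scale, and Hadha, of the mitochondrial trifunctional protein, by 0.68. The succinyl-CoA ligase genes Suclg1 (log2 -0.41), Suclg2 (-0.43) and Sucla2 (0.25), which act beside the Oxct1 step, did not pass. Neither did Acat2 (-0.03) and Hmgcs1 (-0.35), the cytosolic thiolase and HMG-CoA synthase of sterol synthesis. Acss2 lost its call without ObF1 water (limma adjusted p = 0.157) or ObF1 1,3BD (0.0614). Cs lost its call without LnF1 water (limma adjusted p = 0.0937), ObF1 water (0.116) or ObF1 1,3BD (0.0923), and Hadha in every fit without 1 library and with library totals without factors.

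**Figure D5:**
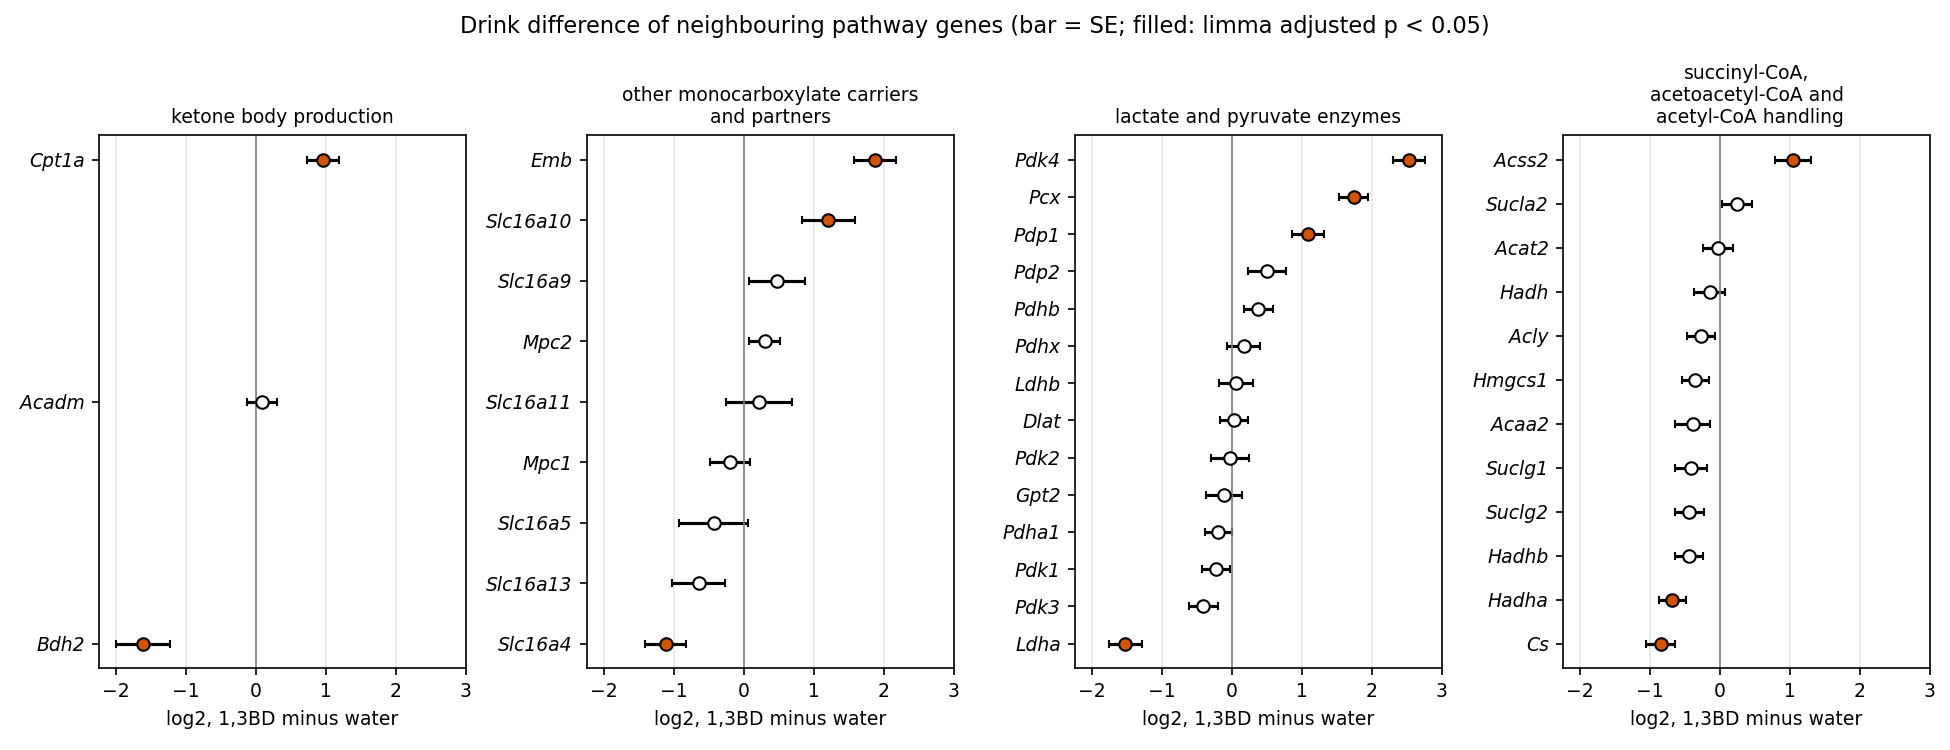
Log2 difference of 1,3BD from water for 38 of the 40 tested genes of 4 neighbouring lists, with bars of 1 SE and filled points where the limma adjusted p is under 0.05. Pdk4, Emb and Pcx (1.74) lie highest, and Bdh2 and Ldha lowest.

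The pattern of each gene over the 4 libraries was set against that of 9952 genes whose mean level reached 5 CPM, by the Euclidean distance of log2 values centred on each gene's mean. The 9 genes themselves and models with only a provisional name were left out. For Slc16a1 the nearest was Mir155hg at 0.183 (2.67 and 2.56 CPM in water, 19.5 and 16.1 CPM with 1,3BD), followed by Dnhd1 at 0.267. The same 2 genes were nearest to Slc16a6, at 0.220 and 0.230, and Slc16a1 and Slc16a6 lay 0.291 apart. Plcxd2 (0.115) and Plxna4 (0.136) were nearest to Slc16a3. Within a distance of 0.2 there was 1 gene for Slc16a1, 0 for Slc16a6 and 2 for Slc16a3, but 89 for Oxct1 (Tvp23a nearest), 73 for Aacs (Rtn2), 99 for Bdh1 (Mex3d), 174 for Bsg (Chd1l) and 235 for Acat1 (Syf2). Slc16a7, whose mean is lower, was not compared. With 4 libraries these distances describe the pattern and test nothing.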

How the data were processed

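Per the labels' protocols, TRIzol was used for extraction and a KAPA mRNA kit for the libraries. The submitters' processing notes name mm10, edgeR and DESeq2 without role or version. Aligner, counter, annotation release and strand were not given in the sources used here. Although its name says raw counts, the table the authors deposited gives each gene a scaled signal. Within a column, 100% of values were whole multiples of what 1 read is worth (relative tolerance 1e-06), which gave back the reads. The unit was CPM, with implied scaling factors of 0.950, 1.13, 0.885 and 1.05. The 2 columns that name no drink were matched to water.

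The test was limma 3.58.1 (trend, robust) on log2(CPM + 0.0796), a pseudocount worth 2 reads, additive in drink and parents with 1 residual degree of freedom, over genes that reached 1 CPM in 2 or more libraries, with Benjamini-Hochberg adjustment. edgeR 4.0.16 and DESeq2 1.42.0 were run on recovered reads, keeping the deposited scaling. For drink edgeR gave 2401 calls higher and 3114 lower, and for parents 24 and 14. Intervals on ratios of reads are exact conditional binomial intervals. Scripts were tested on simulated data. Exon lengths and coordinates are from GENCODE M21 (GRCm38), promoters from RefSeq. All 9 genes are named. Neighbouring genes came from fixed lists, named at a mean CPM of at least 5 or where near 0; Slc16a10 and Bdh2, at lower means, were named after their values were seen. Members and lists were chosen with earlier results of these data known. Fits without 1 library drop the covariate, and the lone library is assumed to vary like the others. Some genes of the neighbouring lists enter the counts but are not reported here by name.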

Additional observations from a re-analysis of the deposited data

Results flagged for a closer look

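In 4 genes a single-library difference had opposite signs in the 2 parental groups or the 2 drinks. None of these reversals was tested, since each rests on 1 library a side. For Slc16a3, ObF1 against LnF1 was 1.01 on the log2 scale in water and -0.83 with 1,3BD, and both counting intervals excluded equality. For Acat1 it was -0.15 in water and 0.38 with 1,3BD, and 1,3BD against water was -0.21 in LnF1 and 0.33 in ObF1. Bdh1 had 0.14 in water and -0.33 with 1,3BD for ObF1 against LnF1, with counting intervals of the ratio (0.888 to 1.38 and 0.594 to 1.06) that both include equality. Slc16a6 had 0.16 in water, where the interval of the ratio (0.825 to 1.53) includes equality, and -0.35 with 1,3BD, where it (0.699 to 0.877) does not.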

How the results depend on the processing

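In the drink comparison, 98 of 125 alternative values of the 9 genes kept their direction and side of the threshold, 18 fell short of it (Oxct1, Bdh1, Aacs and Slc16a7, whose test is not used), 7 passed it (Slc16a3) and 2 changed sign without a call (Acat1). In the parental comparison 107 of 125 kept both and 18 changed sign without a call. With library totals without factors, 1 of the 9 genes was called lower with 1,3BD. Leaving out 1 library, which also drops the covariate, gave 668 to 1926 genes higher and 1232 to 2731 lower with 1,3BD, and 1 to 3 of the 9 lower. For ObF1 against LnF1 it gave 0 higher and 0 to 2 lower. In the same comparison there were 196 higher and 156 lower with no filter, 10 and 5 when a mean of 5 CPM was required, 16 higher with library totals without factors, 70 and 49 with DESeq2, and 0 and 0 without the drink covariate (39 in limma at an unadjusted p under 0.05: 24 higher, 15 lower). Where calls were lost, the cause was not tested. No alternative was left unrun. No paired analysis was possible because each combination has 1 library and the labels give no replicate numbers. Depth limits Slc16a7 (13 to 43 reads per library), Bdh1 (88 to 175 reads) and Slc16a6 in water (84 and 92 reads).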
